A study of Mus musculus with 16 samples.

Results

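The genes described here encode 10 surface molecules through which dendritic cells (DCs) exchange costimulatory or coinhibitory signals with T cells. The set is defined by gene name: Cd80 and Cd86, Cd274 (PD-L1) and Pdcd1lg2 (PD-L2), Icosl, Cd40, Cd83, and the TNF family ligands Tnfsf4 (OX40L), Tnfsf9 (4-1BBL) and Cd70. The cDC table listed all 10 among its 17721 genes, and the pDC table listed 8 among its 17128, without Tnfsf4 and Cd70.

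A T cell that meets its antigen on a DC also reads the ligands that the DC displays. CD80 and CD86 bind CD28, which activates, and CTLA-4, which restrains, whereas PD-L1 and PD-L2 bind PD-1 and dampen T-cell responses. ICOSL binds ICOS, the TNF family ligands bind OX40, 4-1BB and CD27, and CD40 runs the other way: it is a receptor on the DC that CD40L on helper T cells triggers, with NF-kappaB as its main route. CD83 slows the ubiquitin-dependent removal of MHC class II and CD86 from the surface, and most of these molecules rise when DCs mature.

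RNA-seq was done on DCs sorted from the spleens of C57BL/6 mice aged 6 to 8 weeks. Trim33 fl/fl mice served as wild type (WT), and Trim33 fl/fl Itgax-Cre mice as conditional knockout (cKO), so that both genotypes carry the floxed alleles and the cKO alone carries a Cre recombinase driven by Itgax, the gene of CD11c. All cells were gated on CD11c. Plasmacytoid DCs (pDCs) were those positive for SiglecH. Conventional DCs (cDCs) were SiglecH- and MHC II+, and they were split into cDC1s, which carry CD24 without CD172a, and cDC2s, which carry CD172a without CD24. Each genotype was sampled in 3 pDC, 2 cDC1 and 3 cDC2 libraries. Each library was a pool of several mice of 1 genotype, with more mice in a cKO pool than in a WT pool.

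Trim33 checked the genotype labels. It ranged from 15.5 to 23.8 TPM (a read count scaled to transcript length and to the library's total) over the 8 WT libraries and from 7.13 to 16.5 over the 8 cKO libraries, and the groups did not overlap within any subset. The drop was called in cDC1s (log2 difference -1.02, limma adjusted p = 3.49e-04) and cDC2s (-1.17, adjusted p = 1.26e-04) but not in pDCs (-0.68, adjusted p = 0.0301). The subset labels also held: Siglech lay between 4367 and 5131 TPM in pDCs and at no more than 9.60 TPM in cDCs, Xcr1 between 202.0 and 307.2 TPM in cDC1s and at no more than 6.60 TPM in cDC2s, and Clec4a4 between 190.8 and 386.3 TPM in cDC2s and at no more than 3.86 TPM in cDC1s. The depth, estimated from the spacing of low FPKM values, was 18.2 to 20.2 M reads per library. WT cDC2 library 2 stood apart in erythroid transcripts (10745 TPM over 9 genes, against 1274 and 2038 in the other WT cDC2 libraries), and cKO pDC library 1 in B-cell transcripts (149 TPM over the list, against 69.5 and 89.8 in the other cKO pDC libraries). The erythroid sum also differed between WT cDC1 libraries 1 and 2 (3193 and 385 TPM) and ran from 1318 to 6384 TPM over the pDC libraries. In sorted bulk samples, fewer cells that express a gene and less of its RNA per cell cannot be told apart.

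The members lie on 7 chromosomes (RefSeq, GRCm38.p6). Cd80 (chr16:38457430-38495958) and Cd86 (chr16:36568956-36666158) share chromosome 16, Cd274 (chr19:29362107-29388095) and Pdcd1lg2 (chr19:29410919-29472927) are neighbours on chromosome 19, and Tnfsf9 (chr17:57105287-57107758) and Cd70 (chr17:57145997-57149777) are neighbours on chromosome 17. Cd40 (chr2:165055614-165071654), Cd83 (chr13:43785112-43803133), Icosl (chr10:78069368-78079525) and Tnfsf4 (chr1:161395438-161418206) lie alone. Promoters of 4 members (Cd80, Cd274, Pdcd1lg2, Icosl) were matched in the RefSeq promoter table.

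The stretches before the start of 3 of them, Cd80, Cd274 and Pdcd1lg2, are shown because they held a match to a motif searched. Icosl held none, and its mean too was lower in cKO cDCs of both subsets, as for the 3 shown. A link between motif and genotype was not tested. Over the 250 bases before the start of the transcript in that table, 4 motifs were searched on both strands: the kappaB consensus, GAGGAA (the PU.1-type ETS core), GAAANNGAA (IRF half-sites) and TGANTCA (AP-1). Capitals mark the matches, and all stretches are on the plus strand. For Cd80 the window is chr16:38458683-38458932, for Pdcd1lg2 chr19:29410669-29410918, and for Cd274 only the 30 bases around its match are given (chr19:29367351-29367380), since its window overlaps exons of Plgrkt on the other strand. The Cd80 and Cd274 windows lie inside the gene spans given above. They precede the transcript start that was used and not the whole gene.
Cd80: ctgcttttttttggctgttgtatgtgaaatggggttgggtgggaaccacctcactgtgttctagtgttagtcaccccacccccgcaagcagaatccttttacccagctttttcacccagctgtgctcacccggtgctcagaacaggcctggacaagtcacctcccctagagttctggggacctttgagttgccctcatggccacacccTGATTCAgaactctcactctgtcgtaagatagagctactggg
Cd274: gactgggtggcTTCGGTTTCacagacagcg
Pdcd1lg2: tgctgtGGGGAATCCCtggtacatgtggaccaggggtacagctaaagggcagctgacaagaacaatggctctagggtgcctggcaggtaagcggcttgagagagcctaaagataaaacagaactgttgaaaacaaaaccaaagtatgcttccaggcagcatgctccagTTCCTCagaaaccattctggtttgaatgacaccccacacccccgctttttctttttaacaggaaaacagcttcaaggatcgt
Cd80 held an AP-1 match that began 42 bases before the start, Cd274 an IRF match at 76 bases, and Pdcd1lg2 a kappaB match at 244 bases, where the consensus fits both strands, and an ETS match at 82 bases. Among 32817 promoter windows of the same length, 3.90% held the kappaB consensus, 23.2% GAGGAA, 7.12% GAAANNGAA and 6.75% TGANTCA. The Icosl window held none of these letters, and its GC content was 68.8%, against 52.8% in Cd80, 50.4% in Cd274, 48.4% in Pdcd1lg2 and a median of 52.4% over all windows. A match is a stretch of letters and was not tested as a binding site.

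In WT cells each subset had its own make-up of ligand mRNA. The 8 members listed for pDCs summed to 127 ± 23.0 TPM (SD, n = 3), and Icosl alone made up 66.1 to 70.6% of that sum. The 10 members summed to 1171 ± 54.2 TPM (SD, n = 2) in WT cDC1s, where Cd83 (32.8 and 44.1%) and Cd86 (25.4 and 26.2%) led. In WT cDC2s the sum was 1205 ± 74.8 TPM (SD, n = 3), with Cd83 at 17.9 to 36.0% and Icosl at 25.3 to 46.2%. The pDC and cDC values come from tables of different gene content, so the gap between them was not tested.

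**Figure D1:**
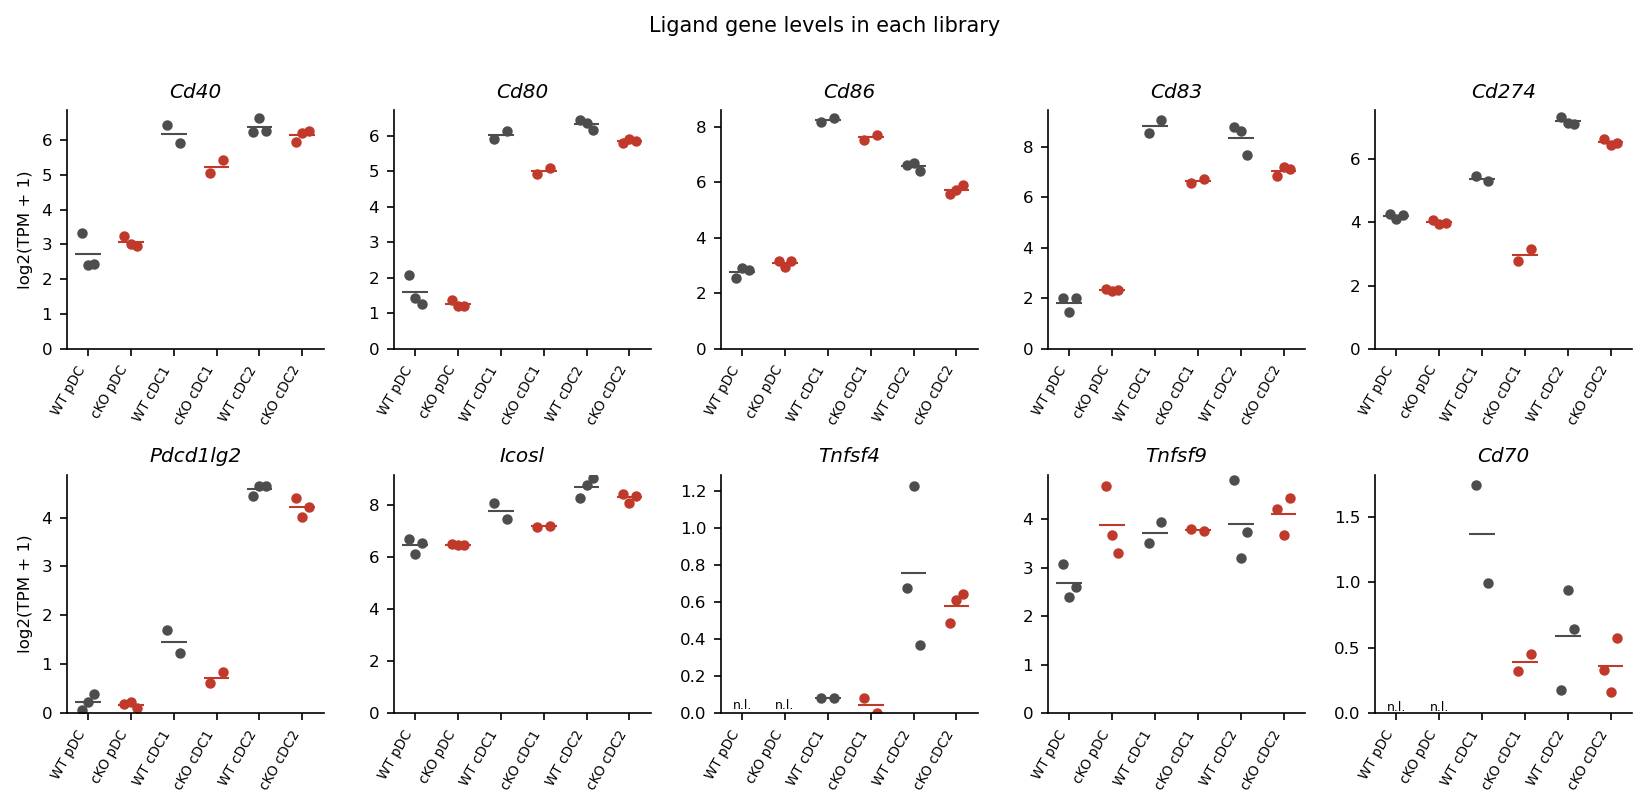
Level of each member in each library as log2(TPM + 1), with a bar at the group mean. Dark grey points are WT, red points are cKO, and n.l. marks genes not listed in the pDC table. Cd274 lay lower in both cKO cDC1 libraries (5.94 and 7.87 TPM) than in any other group.

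The order of the 6 groups was not the same for all members. Cd86 ran from WT cDC1s (mean 302 TPM) through cKO cDC1s (196), WT cDC2s (95.03) and cKO cDC2s (52.4) to cKO pDCs (7.52) and WT pDCs (5.91), with no overlap between neighbours. Cd274 also had no overlap between neighbours, but it ran from WT cDC2s (146) through cKO cDC2s (91.8), WT cDC1s (41.0), WT pDCs (17.4) and cKO pDCs (15.1) to cKO cDC1s (6.91). Cd40 and Cd80 were highest in WT cDC2s and, among cDCs, lowest in cKO cDC1s, and for both of them WT cDC1s overlapped cKO cDC2s. For Tnfsf9 every neighbouring pair overlapped except WT cDC1s and WT pDCs, the latter being lowest.

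WT cDC1s and WT cDC2s differed in which ligands they carried. Limma on log2(TPM + 1), with an adjusted p of at most 0.01 and a log2 difference of at least 0.5 as the call, called 4 of the 8 members tested, against 31.7% of all 11411 genes. Cd86 was higher in cDC1s, at 288.1 and 316.2 TPM against 84.1 to 102 TPM in cDC2s (log2 difference 1.66, SE 0.12, adjusted p = 1.79e-06). The PD-1 ligands were lower in cDC1s: Cd274 at 38.5 and 43.5 TPM against 138 to 159 TPM (log2 difference -1.81, SE 0.13, adjusted p = 1.22e-06), and Pdcd1lg2 at 1.35 and 2.24 TPM against 20.8 to 24.1 TPM (-3.11, SE 0.17, adjusted p = 2.23e-07). Both the Cd86 and the PD-1 ligand groups were apart with no overlap, and these 3 calls were made in all 16 alternative fits. Icosl was also called lower in cDC1s (-0.90, SE 0.23, adjusted p = 0.00790), a call kept in 5 of 16 alternative fits. The replicate block ended that call (adjusted p = 0.0126). It was lost without WT cDC1 library 2 (adjusted p = 0.0910), WT cDC2 libraries 2 or 3 (0.0234 and 0.0193), either cKO cDC1 library (0.0140 and 0.0139), or cKO cDC2 libraries 1 or 3 (0.0112 and 0.0134), without the filter on low genes (0.0197), with the WT libraries only (0.0318), and under median-of-ratios scaling (0.0123), where the median of all genes moved from -0.17 to 0.00.

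Loss of Trim33 was followed by lower ligand values in both cDC subsets and no called difference in pDCs. In cDC1s, 5 of the 8 members tested fell and none rose, while 22.4% of all genes were called and 6.56% were called lower. In cDC2s, 3 of the same 8 fell and none rose, against 7.15% of all genes called and 3.56% called lower. In pDCs none of the 7 members tested was called by limma, against 1.05% of all 11299 genes, and 2 of them had an unadjusted p under 0.05. Of all 11299 genes, 2352 had such a p in pDCs. In cDCs 5541 of 11411 genes had it in cDC1s and 3896 in cDC2s. The median log2 difference of the members was -0.84 in cDC1s, -0.43 in cDC2s and 0.31 in pDCs, beside 0.17, -0.03 and -0.05 over all genes tested. Median-of-ratios scaling moved the cDC1 median of all genes to -0.01 and that of the members to -0.99. It turned the direction of Tnfsf9 in cDC1s and of no other member in any genotype comparison. The cDC1 and cDC2 contrasts were fitted together and share an estimate of the spread.

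**Figure D2:**
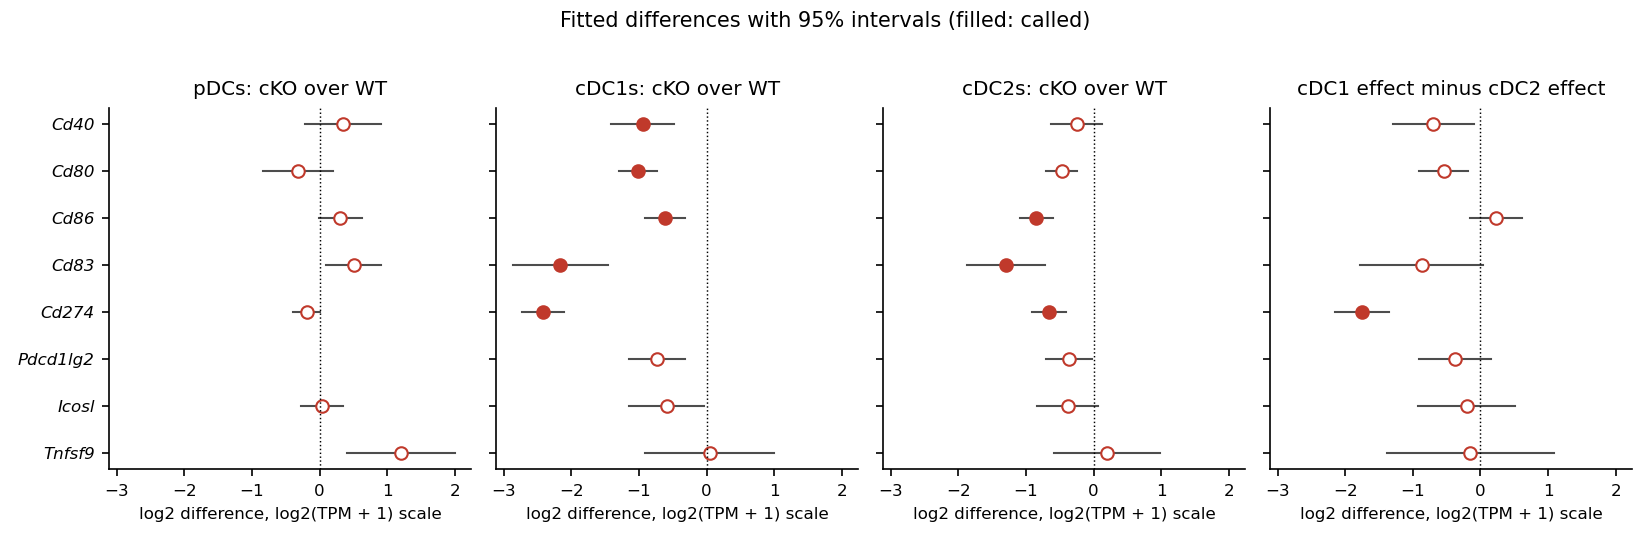
Fitted log2 differences of the 8 members tested, with 95% intervals, in pDCs, cDC1s and cDC2s (cKO over WT) and as the cDC1 effect minus the cDC2 effect. Filled points were called. In the last panel Cd274 is the only filled point, at -1.75.

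Cd274, one of the PD-1 ligands, had the largest log2 difference of the 8 members in cDC1s. It stood at 43.5 and 38.5 TPM in WT cDC1s and at 5.94 and 7.87 TPM in cKO cDC1s, where the mean was 16.8% of the WT mean. The genotypes were far apart (log2 difference -2.42, SE 0.14, adjusted p = 4.50e-06), and the call held in all 17 alternative fits. In cDC2s Cd274 stood at 159, 141 and 138 TPM in WT and at 98.8, 86.7 and 89.9 TPM in cKO libraries, 62.8% of the WT mean and again without overlap. That smaller drop was called (-0.66, SE 0.11, adjusted p = 0.00360). The call was lost without WT cDC2 libraries 1 or 2 (adjusted p = 0.0133 and 0.0107) or cKO cDC2 libraries 2 or 3 (0.0145 and 0.0207). It was also lost with the replicate block (0.0133), so that it was made in 11 of 16 alternative fits. In pDCs the values were 18.2, 16.2 and 17.8 TPM in WT and 16.1, 14.4 and 14.9 TPM in cKO libraries, a difference of -0.19 (SE 0.09, adjusted p = 0.258) that was not called.

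The Cd274 response differed between the cDC subsets. The cDC1 effect minus the cDC2 effect was -1.75 (95% interval -2.15 to -1.36, adjusted p = 5.22e-04), and it was called in all 15 alternative fits. Cd274 was the only member of 8 so called, against 2.56% of all genes. The other 7 differences ran from -0.87 (Cd83, 95% interval -1.77 to 0.04) to 0.23 (Cd86, -0.16 to 0.61), so the interval of Cd83 still held a difference as large as that of Cd274 and the interval of Cd86 did not. In the order of group means, which spans separately normalized tables, Cd274 in WT cDC1s stood above both pDC groups, and in cKO cDC1s it stood below them.

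Pdcd1lg2 followed in direction at a far lower level in cDC1s. It stood at 2.24 and 1.35 TPM in WT and 0.54 and 0.78 TPM in cKO cDC1s, with no overlap (log2 difference -0.74, SE 0.18, adjusted p = 0.0106), just short of the call. With a pseudocount of 0.1 in place of 1 the difference was -1.30 (adjusted p = 0.00284). In cDC2s it stood at 20.8, 23.9 and 24.1 TPM in WT and 20.1, 15.1 and 17.6 TPM in cKO libraries (-0.37, SE 0.15, adjusted p = 0.117), again without overlap. In pDCs no library exceeded 0.32 TPM, close to the 0.203 to 0.212 TPM that 3 reads are worth there, so Pdcd1lg2 was at the edge of detection in both genotypes. The chromosomal neighbours that were tested changed less than Cd274: Plgrkt, whose gene overlaps that of Cd274, had a log2 difference of -0.55 in cDC1s (adjusted p = 0.00900) and -0.03 in cDC2s, and Ric1 on the far side of Pdcd1lg2 -0.65 (adjusted p = 0.00672) and -0.39.

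Of the CD28 and CTLA-4 ligands, Cd80 fell in cDC1s and Cd86 in both cDC subsets, and neither was called in the test of the difference between the subsets. Cd80 stood at 58.2 and 68.9 TPM in WT and at 29.2 and 32.7 TPM in cKO cDC1s, 48.7% of the WT mean (log2 difference -1.01, SE 0.13, adjusted p = 2.98e-04). The groups did not overlap, and the call held in all 17 alternative fits. In cDC2s it stood at 86.3, 80.3 and 70.8 TPM in WT and 54.7, 59.1 and 56.5 TPM in cKO libraries, again apart, with a difference that missed both thresholds (-0.47, SE 0.10, adjusted p = 0.0114). Without WT cDC2 library 3 it was called (-0.55, adjusted p = 0.00573).

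Cd86 was the more abundant of the pair in cDC1s. It stood at 288.1 and 316.2 TPM in WT and 185.5 and 207.2 TPM in cKO cDC1s (log2 difference -0.62, SE 0.13, adjusted p = 0.00495), and at 98.8, 102 and 84.1 TPM in WT and 47.2, 51.3 and 58.6 TPM in cKO cDC2s (-0.85, SE 0.11, adjusted p = 9.27e-04). The cKO mean was 65.0% of WT in cDC1s and 55.1% in cDC2s, and in neither subset did the genotypes overlap. The cDC2 call held in all 16 alternative fits, whereas the cDC1 call was lost without any 1 of the 4 cDC1 libraries (adjusted p = 0.0182 and 0.0355 without WT libraries 1 and 2, and 0.0519 and 0.0182 without cKO libraries 1 and 2) and was made in 12 of 17 fits. The replicate block also ended the cDC1 call of Cd86 (adjusted p = 0.0153). In pDCs Cd86 stood at 4.88, 6.62 and 6.23 TPM in WT and 7.88, 6.65 and 8.03 TPM in cKO libraries (0.31, SE 0.14, adjusted p = 0.250), so the cKO values lay above the WT values there, short of a call. Cd80 in pDCs stayed between 1.31 and 3.21 TPM in both genotypes (-0.33, SE 0.22, adjusted p = 0.457).

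The balance between these ligand pairs therefore moved in cDC1s. The summed TPM of Cd80 and Cd86 over that of Cd274 and Pdcd1lg2 was 7.56 and 9.67 in WT cDC1s and 33.1 and 27.7 in cKO cDC1s. In cDC2s the ratio was 1.03, 1.11 and 0.955 in WT and 0.858, 1.08 and 1.07 in cKO libraries, so the genotypes overlapped. In pDCs it was 0.443, 0.506 and 0.420 in WT and 0.584, 0.546 and 0.623 in cKO libraries. Every cKO pDC library thus lay above every WT pDC library, the same direction as in cDC1s. A ratio within a library does not depend on how the library was scaled, and no test was made on it. Within the CD28 and CTLA-4 ligands, Cd86 exceeded Cd80 by 4.95 and 4.59 times in WT cDC1s and by 6.36 and 6.33 times in cKO cDC1s, while in cDC2s the ratio was 1.15 to 1.27 in WT and 0.863 to 1.04 in cKO libraries.

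**Figure D3:**
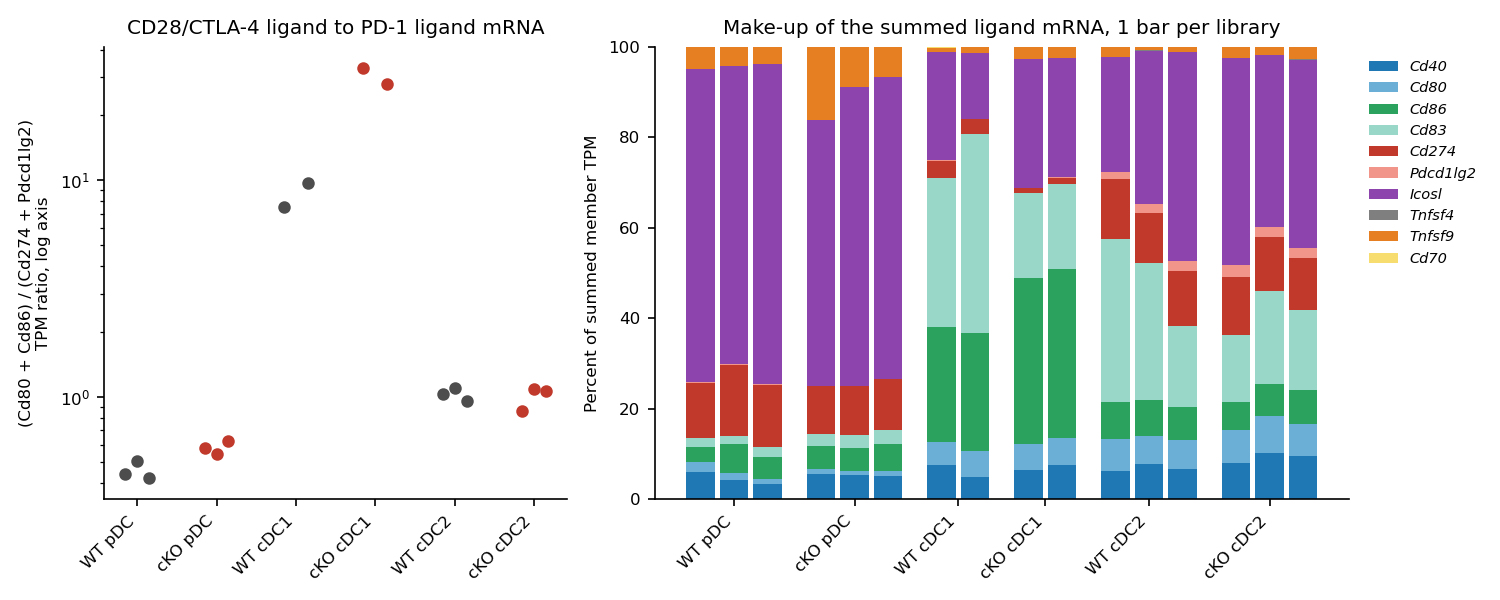
Left, the TPM ratio of Cd80 plus Cd86 to Cd274 plus Pdcd1lg2 in each library on a log axis, with WT in dark grey and cKO in red: cKO cDC1s lie at 27.7 and 33.1, and WT cDC1s at 7.56 and 9.67. Right, the share of each member in the summed TPM, with 1 bar per library in replicate order.

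Cd83, the stabiliser of MHC class II and CD86, had the largest drop in TPM. It stood at 371 and 533 TPM in WT and 94.0 and 104 TPM in cKO cDC1s, 21.9% of the WT mean (log2 difference -2.16, SE 0.32, adjusted p = 6.92e-04), and the call held in all 17 alternative fits. Its share of the summed ligand mRNA went from 32.8 and 44.1% to 18.7 and 18.8%. In cDC2s it stood at 435.0, 387 and 202.0 TPM in WT and 112, 146 and 139 TPM in cKO libraries, with WT library 3 nearest to the cKO values but still above them (-1.29, SE 0.26, adjusted p = 0.00778). That call was kept in 4 of 16 alternative fits, with adjusted p up to 0.0292. Median-of-ratios scaling (0.0135), FPKM (0.0128), no filter on low genes (0.0215), cDC2 libraries only (0.0196) and the replicate block (0.0160) each ended it. It was lost without WT cDC2 libraries 1 or 2 (0.0240 and 0.0282), any of the 3 cKO cDC2 libraries (0.0292, 0.0195 and 0.0280) or either cKO cDC1 library (0.0159 and 0.0156). In pDCs Cd83 stood at 3.06, 1.74 and 3.01 TPM in WT and 4.17, 3.95 and 3.99 TPM in cKO libraries, a difference of 0.51 that was not called (SE 0.18, adjusted p = 0.159).

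Cd40, the receptor for CD40L, fell in cDC1s. It stood at 85.5 and 59.0 TPM in WT and 32.0 and 41.5 TPM in cKO cDC1s (log2 difference -0.94, SE 0.21, adjusted p = 0.00554). The groups did not overlap, but the call was lost without WT cDC1 library 1 (-0.68, adjusted p = 0.0486), cKO cDC1 library 1 (-0.76, 0.0591) or cKO cDC1 library 2 (-1.13, 0.0127). It was also lost without the filter on low genes (adjusted p = 0.0140), with cDC1 libraries only (0.0105) and with the replicate block (0.0137), and it was made in 11 of 17 alternative fits. In cDC2s the genotypes overlapped, at 74.5, 98.5 and 75.3 TPM in WT and 60.4, 72.1 and 75.2 TPM in cKO libraries (-0.25, 95% interval -0.63 to 0.13, adjusted p = 0.331). In pDCs Cd40 ran from 4.30 to 8.95 TPM, with both extremes in WT (0.34, SE 0.24, adjusted p = 0.462).

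Icosl had no called genotype difference in any subset. It stood at 271 and 177 TPM in WT and 144 and 147 TPM in cKO cDC1s (log2 difference -0.59, 95% interval -1.14 to -0.03, adjusted p = 0.0868), at 306, 434 and 521 TPM in WT and 347, 272 and 329 TPM in cKO cDC2s (-0.38, -0.84 to 0.07, adjusted p = 0.213), and at 68.2 to 103 TPM in WT and 88.2 to 89.6 TPM in cKO pDCs (0.04, -0.28 to 0.35, adjusted p = 0.905). The genotypes overlapped in cDC2s and pDCs, and in cDC1s both cKO libraries lay below the WT libraries. WT cDC2 library 3 held both the highest Icosl and the lowest Cd83 of the WT cDC2 libraries.

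Of the TNF family ligands, Tnfsf9, which feeds 4-1BB on activated T cells, was detected in all 6 groups. In pDCs it stood at 7.41, 4.24 and 5.05 TPM in WT and 24.8, 11.9 and 8.82 TPM in cKO libraries, with every cKO library above every WT library (log2 difference 1.2, 95% interval 0.41 to 2.00, adjusted p = 0.10). It was not called in the fit without pairing, and it was called with the replicate number as a block (adjusted p = 0.00457), where the count of all genes called went from 119 to 335. The highest value, in cKO pDC library 1, came from the library with the most B-cell transcripts (Cd79a 38.3 TPM, against 5.61 and 7.54 in the other cKO pDC libraries and 2.95 to 13.7 in WT), and also with the most neutrophil transcripts (131 TPM over the list, against 28.8 and 47.2). Their part in the Tnfsf9 values was not tested, and without that library the log2 difference was 0.80 (adjusted p = 0.145). In cDC1s Tnfsf9 stood at 10.3 and 14.5 TPM in WT and 12.8 and 12.6 TPM in cKO libraries (0.05, 95% interval -0.90 to 1.00, adjusted p = 0.939), and in cDC2s at 26.8, 8.15 and 12.4 TPM and 17.6, 11.8 and 20.7 TPM (0.20, -0.58 to 0.98, adjusted p = 0.722), overlapping in both.

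Cd70 and Tnfsf4, the ligands of CD27 and OX40, were too low for the fit, which needed a mean of 1 TPM or more. Cd70 stood at 2.35 and 0.99 TPM in WT cDC1s and at 0.25 and 0.37 TPM in cKO cDC1s. In the cKO cDC1 libraries 3 reads are worth 0.368 to 0.382 TPM, so those values rest on about 3 reads or fewer. The genotypes did not overlap in cDC1s, the cKO mean being 18.6% of the WT mean, and no test was made. In cDC2s Cd70 was 0.13 to 0.92 TPM in WT and 0.12 to 0.49 TPM in cKO libraries. Tnfsf4 was at 0.06 TPM or at 0 in the cDC1 libraries, under the worth of 3 reads (0.163 to 0.169 TPM), and at 0.60, 1.34 and 0.29 TPM in WT and 0.40, 0.53 and 0.56 TPM in cKO cDC2s. No genotype difference could be detected for Tnfsf4 at this depth.

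Other surface molecules of the same families did not share one direction. Of 10 further B7 and TNF family ligands, 7 were tested in cDCs: 1 rose in cDC1s (Tnfsf8, the CD30 ligand) and none was called in cDC2s, where 2 had an unadjusted p under 0.05. Tnfsf8 stood at 0.20 and 0.27 TPM in WT and 1.33 and 1.39 TPM in cKO cDC1s (log2 difference 0.93, adjusted p = 0.00188, called in 12 of 16 alternatives), and at 7.72 to 9.17 TPM in WT and 4.97 to 6.95 TPM in cKO cDC2s (-0.50, adjusted p = 0.0290). Among 12 other contact molecules, 10 were tested, of which 3 were called in cDC1s (1 higher, 2 lower), 2 in cDC2s (both higher) and none in pDCs, where 4 had an unadjusted p under 0.05. Over all genes tested, 22.4% were called in cDC1s, 7.15% in cDC2s and 1.05% in pDCs. The counts of both lists were not tested against these shares.

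Pvr, the ligand of DNAM-1 and TIGIT, moved in opposite directions. It fell in cDC1s from 31.5 and 24.7 TPM to 10.3 and 12.2 TPM (log2 difference -1.24, SE 0.17, adjusted p = 5.41e-04, called in all 17 alternatives) and rose in cDC2s from 6.25, 6.79 and 5.96 TPM to 11.8, 9.85 and 14.0 TPM (0.80, SE 0.14, adjusted p = 0.00443, called in 8 of 16). Lgals9, which encodes galectin-9, rose in cDC1s (1.42, SE 0.12, adjusted p = 5.01e-05) from 23.1 and 24.3 TPM to 66.1 and 64.3 TPM. Sema4a, a semaphorin that costimulates T cells, rose in cDC2s (1.31, SE 0.15, adjusted p = 4.44e-04) from 15.7, 19.2 and 18.6 TPM to 47.6, 36.1 and 55.5 TPM. Cd244a, a SLAM family receptor, fell in cDC1s (-0.64, SE 0.10, adjusted p = 0.00104).

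Genes of the CD40 route to NF-kappaB passed the threshold in cDC1s, and the subsets were not shown to differ in them. Of 14 genes, 5 fell (Rel -1.72, Traf1 -1.63, Relb -1.56, Birc2 -1.28, Birc3 -1.07) and 1 rose (Nfkb1, 0.86) in cDC1s. Over all genes, 6.56% were called lower and 15.8% higher there. Relb, the partner of p52 in the noncanonical pathway, stood at 221 and 131 TPM in WT and 49.5 and 65.7 TPM in cKO cDC1s (SE 0.22, adjusted p = 5.30e-04). In cDC2s limma called none of the 14 and 9 had an unadjusted p under 0.05. In pDCs it called none and 4 had an unadjusted p under 0.05. None of the 14 was called in the difference between the cDC effects, where 4 had an unadjusted p under 0.05, as did 3499 of all 11411 genes. The median over the list was -0.50 in cDC1s, -0.30 in cDC2s and -0.14 in pDCs.

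The receptors for these ligands, normally studied on T cells, were also read. Over all genes, 6.56% were called lower in cDC1s and 3.56% in cDC2s. In cDC1s 3 of the 5 tested fell: Icos from 29.4 and 16.8 TPM to 3.15 and 4.84 TPM (log2 difference -2.24, SE 0.30, adjusted p = 4.11e-04, called in all 17 alternatives), Tnfrsf4, which encodes OX40 (-2.20, SE 0.44, adjusted p = 0.00348, called in 13 of 17), and Ctla4. Ctla4 stood at 3.85 and 31.4 TPM in the WT cDC1 libraries and at 1.02 and 0.82 TPM in the cKO libraries, and its call (-2.71, SE 0.66, adjusted p = 0.00947) was made in 4 of 16 alternatives. In cDC2s Icos fell from 29.0, 35.4 and 19.4 TPM to 9.88, 10.4 and 10.2 TPM (-1.33, SE 0.24, adjusted p = 0.00494, called in 9 of 16). T-cell marker transcripts summed to 22.8 and 35.0 TPM in WT and 14.8 and 17.3 TPM in cKO cDC1s, and to 84.1 to 101 TPM in WT and 33.4 to 38.5 TPM in cKO cDC2s. Tcf7 made up most of the cDC2 sum (71.0 to 87.3 TPM in WT and 24.1 to 25.8 TPM in cKO libraries). The defining T-cell genes Cd3d, Cd3e and Cd3g were at no more than 1.92 TPM in any cDC library, and Thy1 averaged 1.65 TPM in WT and 2.08 TPM in cKO cDC2s. The part of T cells in the receptor values was not tested. Of the genes for ligand turnover (Marchf1, Marchf8, Cmtm6, Cmtm4), 3 were tested in cDCs and none was called by genotype, with 1 at an unadjusted p under 0.05 in cDC1s and 0 in cDC2s.

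Transcripts of the mature DC state were lower in cKO cDC1s, as were most ligand genes. Of 12 such genes, 11 fell in cDC1s, led by Ccr7 (log2 difference -4.37, SE 0.41, adjusted p = 8.25e-05), the receptor that guides mature DCs to lymph node T-cell zones, Apol7c (-4.30, SE 0.35, adjusted p = 3.92e-05) and Il12b (-4.18, SE 0.29, adjusted p = 1.58e-05), which encodes the p40 chain of IL-12. Ccr7 stood at 694 and 417 TPM in WT and 18.5 and 33.7 TPM in cKO cDC1s. The list summed to 3636 and 5937 TPM in WT and to 373 and 505 TPM in cKO cDC1s. Its median log2 difference was -2.93 in cDC1s, -0.39 in cDC2s and -0.22 in pDCs, beside -0.84, -0.43 and 0.31 for the members. Over all genes, 6.56% were called lower in cDC1s, 3.56% in cDC2s and 0.239% in pDCs. In cDC2s 2 of 12 fell (Ccr7 -1.91, called in 9 of 16 alternatives, and Apol7c -1.56, called in 10 of 16), with sums of 2400 to 3311 TPM in WT and 1230 to 1756 TPM in cKO libraries, and in pDCs 1 of 9 (Apol7c -2.36, called in 5 of 11). Their part in the ligand values was not tested.

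**Figure D4:**
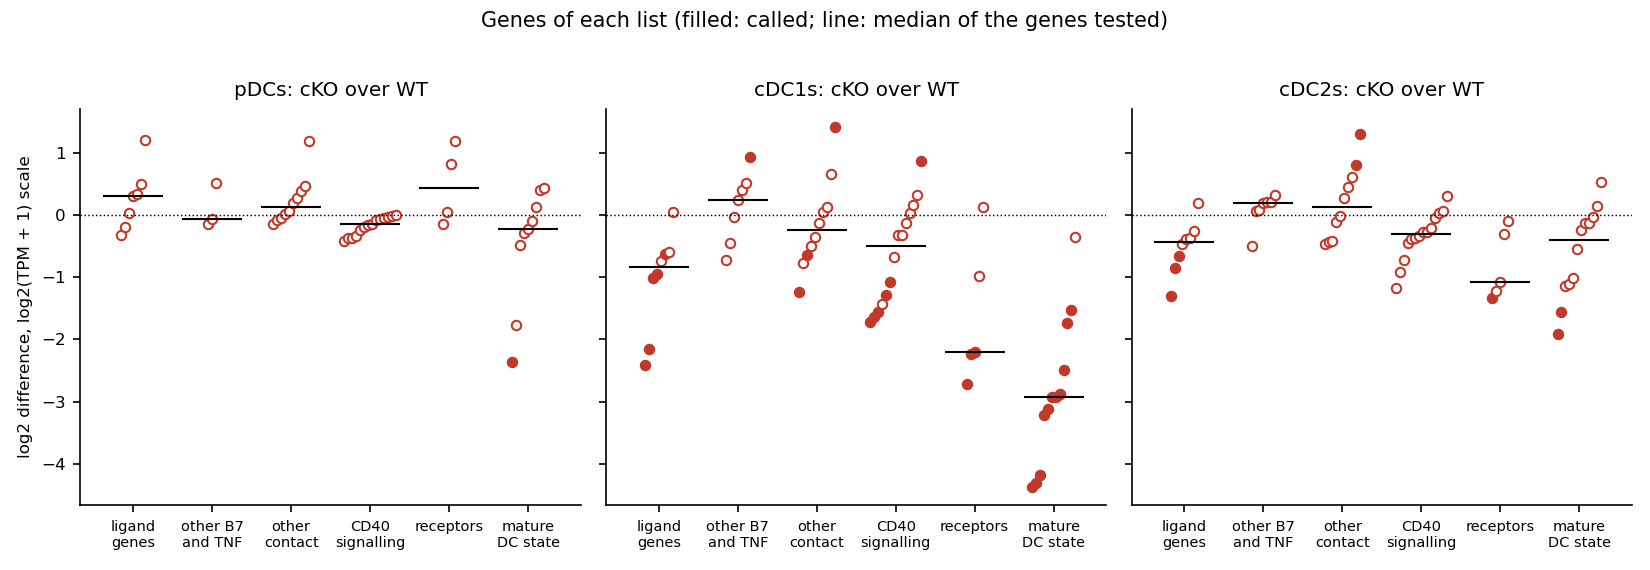
Log2 difference (cKO over WT) of every tested gene of 6 lists in pDCs, cDC1s and cDC2s. Filled points were called, and lines mark list medians. In cDC1s the median is -0.84 for the ligand genes, -0.50 for CD40 signalling and -2.93 for the mature DC state.

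Markers of the same subset and of other cells also moved with the genotype. In cDC1s, 3 of 10 cDC1 markers were called lower (Itgae -2.70, Cadm1 -1.74 and Clec9a -1.33) and none higher. Over all genes, 22.4% were called there. In cDC2s, 3 of 10 cDC2 markers were called lower (Cd4 -1.37, Esam -1.17 and Irf4 -1.08). Another 3 were called higher (Clec10a 1.55, Mgl2 1.14 and Itgam 1.03), against 7.15% of all genes called. In cDC1s the pDC marker list (10 genes) summed to 343 and 411 TPM in WT and 588 and 611 TPM in cKO libraries, with 3 genes called higher (Cox6a2, Tcf4 and Bst2) and 1 lower (Ccr9). The cDC2 marker list summed to 103 and 134 TPM in WT and 149 and 161 TPM in cKO cDC1s, with 2 genes called higher (Itgam and Clec10a) and 2 lower (Esam and Cd4). The NK list summed to 48.9 and 62.3 TPM in WT and 102 and 114 TPM in cKO cDC1s, and to 25.5 to 44.0 TPM and 60.04 to 68.6 TPM in cDC2s. Klrk1 carried most of that sum, at 45.2 and 60.01 TPM in WT and 99.1 and 112 TPM in cKO cDC1s. In pDCs the monocyte and macrophage list summed to 5019 to 5681 TPM in WT and 5848 to 6042 TPM in cKO libraries, with none of 13 genes called by limma and 7 at an unadjusted p under 0.05. That list holds Ly6c2, which the study counts among pDC-associated genes and which differed by 0.17 in pDCs. Of the 13 genes, 2 had a log2 difference below 0 (Lyz2 -0.34 and Ccr2 -0.16). In the other marker lists the genes called in pDCs were Itgam (2.92), Thy1 (1.93), Cox6a2 (1.46) and Lat (1.44), all higher. Over all genes, 1.05% were called there. The T-cell list as a whole summed lower, at 521 to 811 TPM in WT and 360 to 419 TPM in cKO pDCs. In cDC2s the summed monocyte and macrophage list (14 genes) was 1420 to 2001 TPM in WT and 2764 to 3623 TPM in cKO cDC2s, with Lyz2 at 617 to 1048 TPM and 1945 to 2449 TPM. In cDC1s the same list summed to 447 and 710 TPM in WT and 489 and 517 TPM in cKO libraries, overlapping. Genes within it moved both ways in cDC1s. Of the 14, 3 were called higher (Ccr2 2.10, Ly6c2 1.40 and Csf1r 0.85) and 2 lower (Spic -2.11 and Vcam1 -1.92). B-cell markers summed to 24.8 and 34.5 TPM in WT and 18.3 and 18.6 TPM in cKO cDC1s, and to 49.1 to 65.4 TPM and 49.4 to 51.1 TPM in cDC2s. Of the 4 tested in cDCs, Ms4a1 was called lower in both subsets (-1.48 in cDC1s and -1.46 in cDC2s) and Cr2 in cDC2s (-1.40). Their part in the ligand values was not tested.

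The ligand genes did not all vary together across libraries. Over the 10 cDC libraries, a member's correlation with the mean standardised profile of the other 7 was 0.97 for Cd80, 0.90 for Cd274, 0.84 for Cd40, 0.70 for Icosl, 0.65 for Pdcd1lg2, 0.60 for Cd83 and 0.03 for Tnfsf9, and it was -0.48 for Cd86, which alone was higher in cDC1s than in cDC2s of both genotypes. These values describe 10 libraries of 4 groups, which share subset and genotype. The 5 other genes whose profile was most like the mean of the 8 members were Ypel5 (r = 0.99), Mreg (0.98), Ell2 (0.98), Cflar (0.98) and Apoe (0.98), among 11402 genes. Mreg ran from 4.59 to 6.40 TPM in cKO cDC1s to 148 to 176 TPM in WT cDC2s, and Cflar, an inhibitor of caspase-8, from 16.5 and 20.3 TPM to 64.2 to 76.7 TPM. Over the 6 pDC libraries the most alike were Gins3 (r = 0.99), G3bp1 (0.99), Ubl7 (0.98), Rpn2 (0.98) and Gm52436 (0.98), a ranking over few libraries in which no member was called.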

How the data were processed

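TPM and FPKM values per gene were deposited by the authors for 16 libraries, in separate tables for pDCs and cDCs. Single-end 50-base BGISEQ-500 reads had been filtered with SOAPnuke, and the submitters' processing notes name Bowtie2 2.2.5, RSEM 1.2.12 and HISAT2 2.0.4 on mm10. The release of the transcript reference is not given in the sources used here. TPM is a share of each library's total, so a few very high transcripts lower all others. All 32 value columns were mapped through the sample titles.

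Genes with a mean of at least 1 TPM over the fitted libraries were tested on log2(TPM + 1), on which scale fold changes of low genes are understated. Limma 3.58.1 (lmFit, eBayes with trend, R 4.3.3) was fitted to the 6 pDC libraries and, as 4 group means, to the 10 cDC libraries. Limma took the place of the count model the study used, since the values are not counts. All tests were two-sided. P-values were adjusted by Benjamini-Hochberg over every gene tested, and a gene was called at the study's thresholds: adjusted p no higher than 0.01 and a log2 difference of 0.5 or more in size. The fits were tested on simulated data. Replicates are pools of mice, and p-values measure the spread between these pools. Depth was estimated from the steps of low FPKM values of single-transcript genes (GENCODE lengths), scanned from 12 to 30 M reads. The worth of 3 reads in TPM covers counting error only. Same-numbered WT and cKO libraries deviated together in pDCs (r = 0.31, 0.39 and 0.21), which is taken from the values, since the labels state no pairing, so the blocked value is printed beside a pDC result where it changes the call. Alternatives were another scaling (median of ratios), FPKM, a pseudocount of 0.1, no filter, own libraries only, the replicate block and leaving out each library. Leaving out a cDC library outside the groups compared leaves a gene's difference as it was. It changes only the shared spread and the set of genes adjusted over. The counts of alternative fits in which a cDC call was made include such fits.

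The members, lists and tests were chosen with earlier results of these data known. All 10 members are named, then the called genes of each list up to 6 by size in each contrast, defining markers, and the 5 genes most alike by Pearson r. The neighbouring genes and single markers were chosen after their values were seen. Plots were drawn with matplotlib 3.10.9, and tables were handled in pandas 2.3.3 and numpy 2.4.6 (Python 3.11.15).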

Additional observations from a re-analysis of the deposited data

Results flagged for a closer look

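The genotype effect differed between cDC1s and cDC2s, by the test of the difference itself, for Cd274 (-1.75 on the log2 scale, cDC1 effect minus cDC2 effect) for 7 genes of the functional lists: Il12b (-4.05), Ccl22 (-3.45), Cd63 (-3.37), Apol7c (-2.75), Pvr (-2.04), Tnfsf8 (1.43) and Lgals9 (0.97), and for 3 genes of the cell type lists: Spic (-2.35), Itgae (-2.26) and Ccr9 (-1.10). Ccl22 had a difference of -2.92 in cDC1s and of 0.53 in cDC2s, where it was not called (adjusted p = 0.170). Among the first 8 of these calls, those of Cd274, Ccl22 and Il12b were made in all 15 alternative fits, that of Pvr in 14, and those of Tnfsf8, Lgals9, Apol7c and Cd63 in 8, 7, 6 and 4.

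Cd83 and Cd86 lay above WT in every cKO pDC library and below WT in every cKO cDC1 and cDC2 library. For Cd83 the differences were 0.51 in pDCs, -2.16 in cDC1s and -1.29 in cDC2s, and for Cd86 0.31, -0.62 and -0.85. The pDC differences were not called, and the difference between pDCs and cDCs was not tested, since their tables hold different genes.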

How the results depend on the processing

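Of 588 member fits under alternatives, 530 kept their direction and side of the threshold, 39 lost a call, 6 gained one and 13 changed sign, none of them a called value. Under median-of-ratios scaling Tnfsf9 in cDC1s turned to -0.13, and with FPKM to -0.011. The other sign changes came from leaving out 1 library, which gave -0.13 to 0.16 for Icosl in pDCs, -0.17 to 0.27 for Tnfsf9 in cDC1s, -0.16 to 0.64 for Tnfsf9 in cDC2s, -0.51 to 0.10 for Icosl and -0.59 to 0.21 for Tnfsf9 in the cDC1 minus cDC2 difference, and -0.47 to 0.058 for Cd40 and -0.55 to 0.26 for Tnfsf9 in WT cDC1s over WT cDC2s. The cause was not tested. Leaving out 1 library gave 3 to 5 members called in cDC1s, 1 to 4 in cDC2s, 0 in pDCs, 1 in the difference and 3 to 4 between WT subsets. With the replicate block 1 member (Tnfsf9) was called in pDCs, where it changed no other member's call, 3 in cDC1s and 1 in cDC2s. In cDC2s the same-numbered libraries did not all deviate together (r = -0.25, 0.25 and -0.16), and so few libraries cannot show whether the numbers mark pairs there. The block ended the calls of Cd40 (adjusted p = 0.0137) and Cd86 (0.0153) in cDC1s, of Cd274 (0.0133) and Cd83 (0.0160) in cDC2s, and of Icosl between WT subsets (0.0126), and in cDC2s it took the count of all genes called from 816 to 356. In cDC1s they deviated in opposite directions (r = -0.23), and a crossed replicate block, chosen after seeing the data, called 6 members and 2310 genes against 5 and 2555. The share of called genes that were higher went from 70.7 to 47.0% in cDC1s, from 47.3 to 27.6% in the difference and from 34.4 to 50.2% between WT subsets under median-of-ratios scaling, and from 50.2 to 61.0% in cDC2s with FPKM. Without the filter 24 genes were called in pDCs, against 119. Leaving out 1 library gave 12 to 97 calls over all genes in pDCs, 800 to 2888 in cDC1s, 316 to 907 in cDC2s and 77 to 282 in the difference, where the block gave 95 against 292. The own-libraries fit was not run for the difference, which needs all 4 groups, and it gave 444 calls in cDC2s. Depth limits Cd70, Tnfsf4 and, in pDCs and cDC1s, Pdcd1lg2.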
